A study of Mus musculus with 2 samples.

Results

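Genes of drug and peroxide detoxification, 10 in number, were followed through the non-muscle cells of the mouse heart: 7 glutathione transferases (Gstp1, Gsta3, Gstm1, Gstm2, Gstt1, Mgst1 and Mgst3), the secreted glutathione peroxidase Gpx3, catalase (Cat) and the flavin monooxygenase Fmo2. They are 10 of the 31053 genes in the deposited matrices, and they were chosen by name with their levels per class and their ratios between the libraries in view, so these values are descriptions and carry no test. Cells came from 2 libraries, 1 of db/+ mice, which were the controls and received no treatment that the labels name, and 1 of db/db mice given 1% salt. The db allele is a mutation of the leptin receptor, carried on 1 chromosome by the controls and on 2 by the db/db mice. The series title calls the second group an HFpEF model, after a form of heart failure in which the ejection fraction is preserved. The design text gives 4 male hearts per genotype; no source used here says whether they were pooled before loading, or gives the age and strain of the mice. With 1 library per group, genotype, salt, animal and library preparation cannot be told apart.

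Glutathione transferases join glutathione, a small thiol peptide, to reactive or foreign compounds so that they become soluble and can be exported. The cytosolic enzymes fall into classes named by Greek letters (pi for Gstp1, alpha for Gsta3, mu for Gstm1 and Gstm2, theta for Gstt1), while Mgst1 and Mgst3 sit in membranes. Glutathione peroxidases and catalase remove peroxides, and flavin monooxygenases add oxygen to nitrogen and sulfur atoms of drugs and metabolites. Many of these genes are known targets of the transcription factor Nrf2, which binds antioxidant response elements.

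The transferases have close relatives, and for Gstp1 this touches what a short 3' read can tell. Gstp1 (ENSMUSG00000060803, GRCm38 chr19:4035407-4037985, minus strand) lies beside Gstp2 (chr19:4040285-4046023, minus strand), and their coding sequences, each 633 bases long, were identical at 98.1% of positions. The stretch below, coding bases 271 to 330 read from the GENCODE M21 transcripts, is shown because it holds 5 of the 12 bases at which the pair differ, written in capitals.
Gstp1: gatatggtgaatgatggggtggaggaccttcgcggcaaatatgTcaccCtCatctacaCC
Gstp2: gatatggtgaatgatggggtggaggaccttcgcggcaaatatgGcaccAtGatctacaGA
Within the last 500 bases of the Gstp1 transcript, 280 of 411 windows of 90 bases (68.1%) also occurred in a transcript of another gene, namely Gstp2 or the pseudogene Gstp-ps. No source used here says how reads from such windows were assigned or whether strand was used, so the Gstp1 UMI counts may miss or include reads of its copy. Gstp2 itself had 29 UMIs in fibroblasts of db/+ and 60 in those of db/db and salt, against 229 and 807 for Gstp1. Gstm1 shared 132 of 1200 windows (11%) over its whole transcript with Gstm3 and with the pseudogenes Gm8834 and Gstm2-ps1, but 0 of 411 within its last 500 bases. Gstm2, which is identical to Gstm1 at 86.0% of coding positions, shared 1.64% of its windows. The other 7 genes shared 0 windows of this length. Gsta3 (chr1:21240589-21265661, plus strand) is overlapped over 15303 bases by the antisense gene Gm28836, which had 4 and 6 UMIs in the fibroblasts of the 2 libraries against 2340 and 5815 for Gsta3.

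The db/+ library held 5676 barcodes with 44935235 UMIs and the db/db and salt library 4751 barcodes with 40974634 UMIs, and 7 barcode sequences occurred in both. After removal of barcodes with over 10% mitochondrial UMIs, with under 500 genes or called as doublets, 4884 and 4094 cells were kept, with medians of 7048 and 7772 UMIs. Cell classes were set by marker UMIs, none of them from the 10 genes, with thresholds chosen after the data were seen. This gave 1121 and 1016 fibroblasts and 2964 and 2495 blood endothelial cells in db/+ and in db/db and salt. Fibroblasts were divided into resident interstitial (508 and 523), matrix-activated (159 and 93) and adventitial progenitor-like (340 and 310) subsets, and endothelial cells into capillary (1231 and 1290), arterial (364 and 317), venous (196 and 120) and angiogenic (327 and 199) subtypes. Endocardial cells numbered 63 and 54 and mural cells, meaning pericytes and smooth muscle, 69 and 58. The lineage markers of each label were present: the 8 fibroblast markers summed to 30693 and 31460 CPM in fibroblasts and to 54.6 and 97.9 CPM in endothelial cells, where CPM are the UMIs of a gene divided by all UMIs of its class and multiplied by 1000000. Fibroblast markers also summed to 3096 and 2725 CPM in endocardial cells, with 6 and 7 of the 8 detected, and to 3277 and 1329 CPM in mural cells, with 7 of 8 detected in each library. Their part in the values of these 2 small classes was not tested. Each molecule is counted once at its 3' end, so CPM was not divided by gene length. Brackets give exact 95% Poisson intervals, or the exact 95% interval of a fold, and these cover counting error only.

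The genes differed in which classes held them: Gpx3 and Gsta3 were highest in fibroblasts, Mgst3 in mural cells and Fmo2 in venous cells, and catalase was near even. Gpx3, the plasma form of glutathione peroxidase, was the most abundant of the 10 in resident fibroblasts, with a db/+ level of 1136 CPM (1104 to 1168) and a db/db and salt level of 931 CPM (907 to 957). It stood at 684 and 488 CPM in adventitial and at 441 and 346 CPM in matrix-activated fibroblasts, and the 3 subsets did not overlap in either library. Mural cells as a whole came next, at 71.9 CPM (45.1 to 109) and 137 CPM (97.8 to 187), above every endothelial subtype in both libraries. Most of these mural UMIs were from smooth muscle, which had 16 and 39 (147 and 286 CPM), db/+ first. Pericytes held only 6 and 1 UMIs, or levels of 30.4 and 6.43 CPM. The second pericyte level, with an interval of 0.163 to 35.8, overlapped the endothelial subtypes of its library. In endothelial cells the level of Gpx3 was 1.94 CPM (1.39 to 2.63) and 2.46 CPM (1.78 to 3.31), and in endocardial cells 0 UMIs were counted in both libraries. The fibroblast level was thus 420-fold (309 to 585) above the endothelial one in db/+ and 274-fold (203 to 379) in db/db and salt.

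Gsta3, the alpha-class transferase, was also highest in fibroblasts, but unlike Gpx3 it had only 0 and 1 UMIs in mural cells. Its level in resident, adventitial and matrix-activated fibroblasts was 336, 156 and 89.0 CPM in db/+ and 716, 272 and 199 CPM in db/db and salt, again with no overlap between subsets. Endothelial cells held 13 and 23 UMIs in all, or 0.614 and 1.31 CPM. Arterial cells had 0 UMIs in both libraries, with upper limits of 1.47 and 1.57 CPM. Of the cells thinned to 1500 UMIs, 25.9% of fibroblasts in db/+ and 43.5% in db/db and salt had a Gsta3 UMI, against 0.143% and 0.25% of endothelial cells. Before thinning the shares were 63.7% and 85.3% of fibroblasts at medians of 9499 and 11941 UMIs, and 0.405% and 0.882% of endothelial cells at medians of 5208.5 and 5296 UMIs.

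The mu-class transferases Gstm1 and Gstm2 were found in all 9 classes. Gstm1 was highest in adventitial and resident fibroblasts (876 and 838 CPM in db/+, with overlapping intervals; 911 and 829 CPM in db/db and salt). It was next highest in mural cells, at 543 CPM (463 to 632) and 812 CPM (711 to 922), and lowest in venous cells of db/+ (119.6 CPM) and in angiogenic and venous cells of db/db and salt (175 and 182 CPM, overlapping). Within mural cells smooth muscle of db/+ had a level of 874 CPM (707 to 1068) and that of db/db and salt 1296 CPM (1112 to 1502), against 360.3 and 386 CPM in pericytes. Gstm2 stood lower, at 132 and 113 CPM in fibroblasts and 63.9 and 65.2 CPM in endothelial cells, with its highest level in resident fibroblasts (154 and 138 CPM), where it overlapped the mural levels of 118 and 130.1 CPM in both libraries. Gstt1, of the theta class, was 5.47-fold (4.83 to 6.20) higher in fibroblasts than in endothelial cells of db/+, at levels of 88.7 and 16.2 CPM. Its db/+ mural level of 98.1 CPM (66.2 to 140.1) overlapped that of resident fibroblasts. In db/db and salt the fibroblast to endothelial fold was 8.07 (7.06 to 9.25). There the mural level of 54.8 CPM (31.3 to 89.0) lay under the resident one of 145 CPM (136 to 156).

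Both membrane transferases were unevenly spread, in opposite ways. Mgst1, which also reduces lipid peroxides, stood at 268 and 266 CPM in fibroblasts and at 36.7 and 54.5 CPM in endothelial cells, db/+ first. Among blood vessel subtypes it was highest in arterial cells (112 and 151 CPM) and lowest in capillary and angiogenic cells of db/+ (19.8 and 18.7 CPM). Endocardial cells reached 197 CPM (161 to 239) and 234 CPM (198 to 276), above every endothelial subtype in both libraries. Mgst3 was highest in mural cells, at 252 CPM (199 to 315) and 271 CPM (214 to 337). Pericytes and smooth muscle had overlapping Mgst3 levels of 254 and 248 CPM in db/+ and of 244 and 300.2 CPM in db/db and salt. Endothelial cells followed with Mgst3 levels of 50.1 and 47.7 CPM and fibroblasts with 20.4 and 21.1 CPM. The 234 and 171 cells that carried both mural and endothelial markers, and were kept apart, stood between, at 149 and 139 CPM.

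Catalase was the most even of the 10 over the 9 classes of db/+. Its level was 53.7 CPM (49.4 to 58.2) in fibroblasts and 54.1 CPM (51.0 to 57.3) in endothelial cells of db/+, a ratio of 0.99 (0.90 to 1.10). In db/db and salt the levels were 54.1 and 51.6 CPM. Intervals of all 9 classes of db/+ overlapped one another. In db/db and salt not all did. The mural level of 20.5 CPM (7.54 to 44.7), which rested on 6 UMIs, lay under the intervals of venous, arterial, adventitial and resident cells. Venous cells, at 65.5 CPM (52.3 to 81.0), were apart from capillary cells, at 46.7 CPM (42.2 to 51.6).

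Fmo2, the flavin monooxygenase known from lung, had its highest level not in fibroblasts but in venous endothelium, where db/+ had 547 CPM (516 to 578) and db/db and salt had 887 CPM (837 to 940). Markers of other cells were higher in the same venous cells of db/db and salt: the 8 fibroblast markers summed to 50.7 and 214 CPM (7 detected in each library), the 7 endocardial ones to 199 and 397 CPM (6 in each), the 5 mesothelial ones to 43.1 and 268 CPM (2 and 5), and the 6 adventitial ones to 174 and 495 CPM (4 and 6). Their part in the venous levels of Fmo2 and Gstp1 was not tested. Endocardial cells and resident fibroblasts of db/+ came next with overlapping levels of 319 and 317 CPM, then matrix-activated and adventitial fibroblasts and capillary cells (133, 116 and 104 CPM), angiogenic cells (63.5 CPM) and arterial cells (27.8 CPM). Venous and arterial cells thus stood at the top and near the bottom of the order in both libraries. Mural cells had 1 UMI in db/+ and 0 in db/db and salt. Of venous cells thinned to 1500 UMIs, 50% (42.8 to 57.2) of db/+ and 69.2% (60.1 to 77.3) of db/db and salt had an Fmo2 UMI. Of mural cells 0 of 61 and 0 of 54 had one, where 3 cells would make 4.92% and 5.56%. Before thinning the shares were 84.7% and 91.7% of venous cells, at medians of 9687 and 9200.5 UMIs, and 1.45% and 0% of mural cells, at medians of 4194 and 4405 UMIs.

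**Figure D1:**
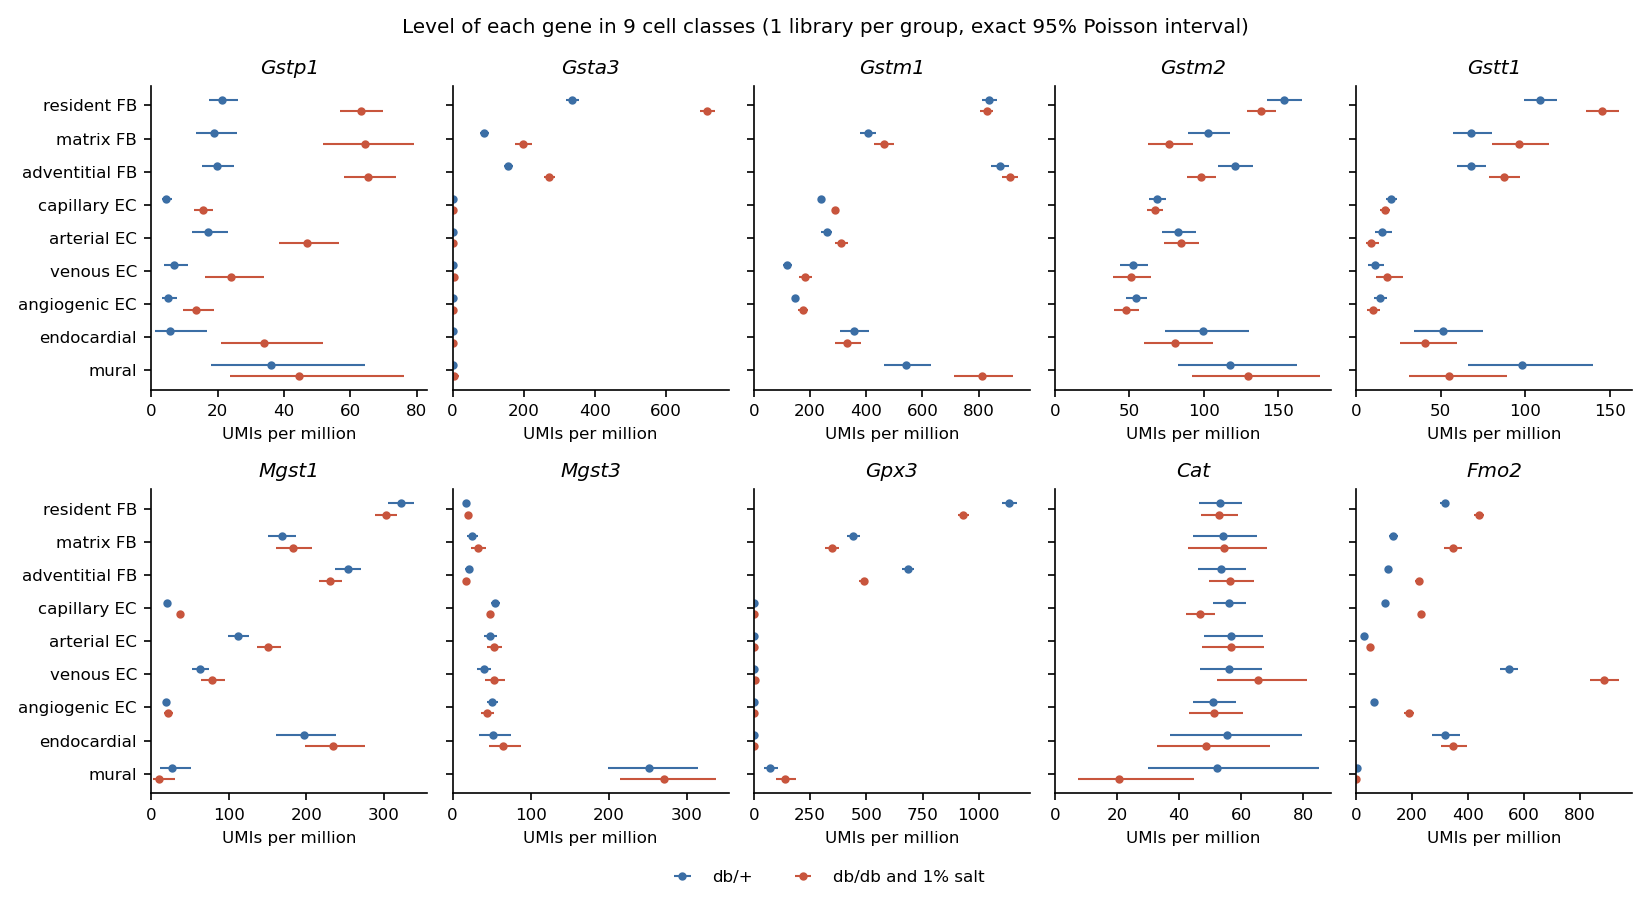
Level of each of the 10 genes (x axis, CPM, linear from 0) in 9 cell classes (y axis; FB fibroblast, EC endothelial), with db/+ in blue and db/db and 1% salt in red. Points are 1 library each and bars are exact 95% Poisson intervals. Gsta3 lies near 0 outside fibroblasts and Gpx3 outside fibroblasts and mural cells. Mgst3 is highest in mural cells, and catalase lies near 54 CPM in most classes.

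Between the libraries, a gene was called when its ratio, the log2 of CPM plus 10 in db/db and salt over CPM plus 10 in db/+, passed a 1.5-fold difference, its 2 Poisson intervals did not overlap and its mean level was at least 10 CPM. In fibroblasts 3 of the 10 genes were called higher, namely Gstp1, Gsta3 and Fmo2, where 0.614% of 8626 measured genes were called higher. None of the 10 was called lower, where 0.962% of genes were. The median log2 ratio was 0.06 over the 10 genes and 0.03 over all genes. In endothelial cells 8 of the 10 genes reached the mean level, and 2 of them, Gstp1 and Fmo2, were called higher (0.521% of 8251 genes) and 0 lower (1.55%), with medians of 0.19 over the 8 genes and 0.05 over all. These genes were chosen with such ratios known, so the shares give the background and nothing more is read from them.

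Gstp1, the pi-class transferase, had 229 UMIs in db/+ fibroblasts and 807 in those of db/db and salt, levels of 20.9 CPM (18.3 to 23.8) and 64.6 CPM (60.2 to 69.2). The fold was 3.09 (2.66 to 3.59) and the log2 ratio 1.27, with 2 of the 8626 measured genes further up. The 3 subsets gave like values: the level went from 21.3 to 63.2 CPM in resident, from 19.0 to 64.6 CPM in matrix-activated and from 19.7 to 65.5 CPM in adventitial fibroblasts. Within each library these 3 levels overlapped, and between the libraries none did. With subsets weighted as in db/+, the log2 ratio was also 1.27.

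Endothelial Gstp1 was lower than that of fibroblasts in each library and differed between libraries by a similar fold. Its db/+ level was 6.62 CPM (5.57 to 7.81) and its db/db and salt level 21.01 CPM (18.9 to 23.3), a fold of 3.18 (2.61 to 3.89) and a log2 ratio of 0.90. The fibroblast to endothelial fold was 3.16 (2.55 to 3.93) for Gstp1 in db/+, where that of Gpx3 was 420. Arterial cells had the highest Gstp1 level of the subtypes, 17.1 CPM (12.4 to 23.0) and 46.9 CPM (38.6 to 56.6), and in db/+ overlapped the fibroblast subsets. The folds were 2.75 (1.91 to 4.00) in arterial, 3.54 (2.41 to 5.33) in capillary, 3.58 (1.88 to 7.14) in venous and 2.71 (1.55 to 4.84) in angiogenic cells. Capillary and angiogenic cells were under the mean of 10 CPM and so had no call. Endocardial cells went from 3 to 21 UMIs, or from 5.73 to 34.0 CPM, a fold of 5.93 (1.77 to 31.0). Mural cells had 11 and 13 UMIs (36.0 and 44.5 CPM), a fold of 1.24 (0.51 to 3.05), an interval that includes 1 and ends just under the fold of fibroblasts.

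Gstp1 was above db/+ in 9 of 9 classes and was called higher in 6 of the 7 in which it was measured. Across all genes, 12 were called higher in at least 6 of the 9 classes and 41 lower. The share of fibroblasts with a Gstp1 UMI at 1500 UMIs per cell was 3.16% (2.21 to 4.37) in db/+ and 9.24% (7.53 to 11.2) in db/db and salt, and without thinning 17.8% and 49.1%. In endothelial cells it was 0.966% (0.637 to 1.40) and 2.96% (2.32 to 3.72), and without thinning 4.39% and 12.4%. The near-identical Gstp2 had 29 and 60 UMIs in fibroblasts, or 2.65 and 4.80 CPM, a fold of 1.81 (1.15 to 2.93).

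**Figure D2:**
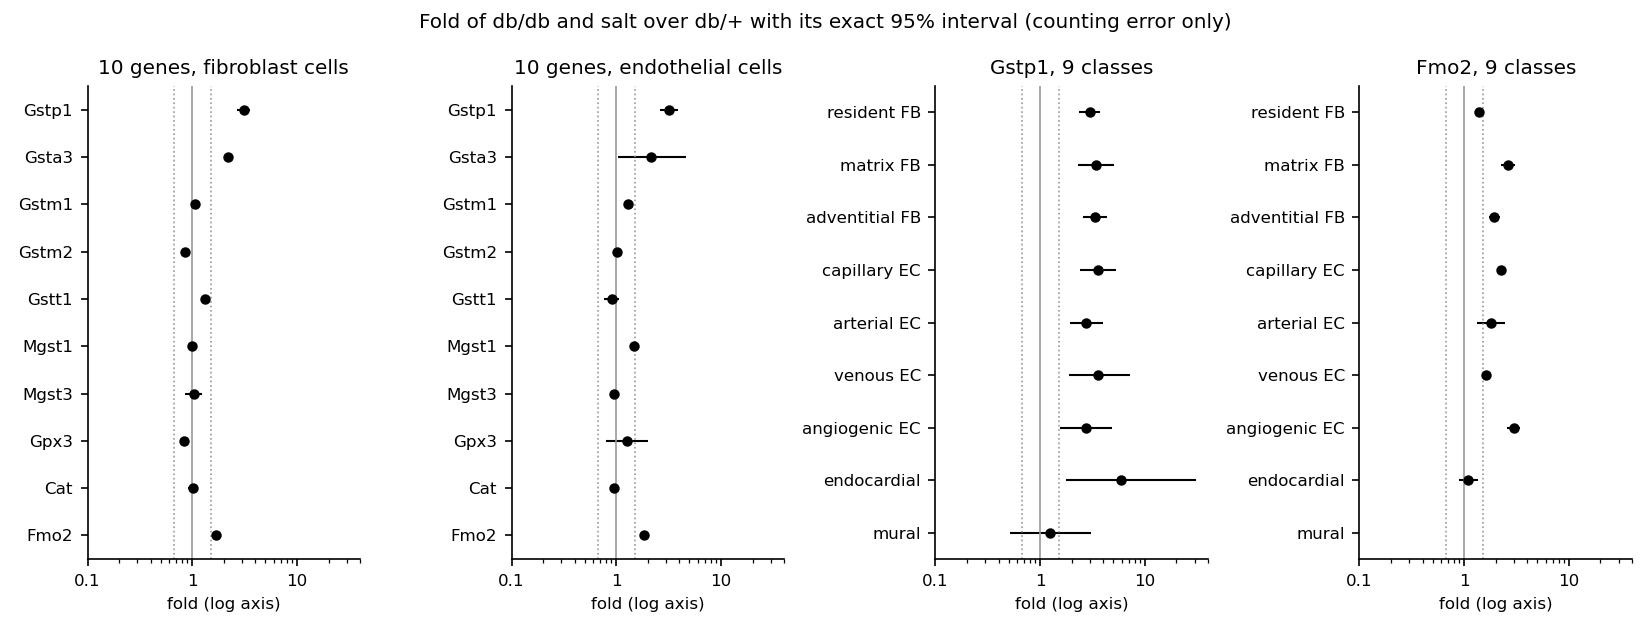
Fold of db/db and salt over db/+ (x axis, log scale) with its exact 95% interval, for the 10 genes in fibroblasts and in endothelial cells (first 2 panels) and for Gstp1 and Fmo2 in 9 classes (last 2). Solid lines mark 1 and dotted lines 1.5-fold either way, and genes with under 10 UMIs in all or 0 in a library have no point; Gstp1 lies between 2.71-fold and 5.93-fold in 8 classes and at 1.24-fold in mural cells, where its interval crosses 1.

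Gsta3 was 2.18-fold (2.08 to 2.29) higher in fibroblasts of db/db and salt, with levels of 214 CPM (205 to 222) and 466 CPM (454 to 478) and a log2 ratio of 1.09 that 5 measured genes exceeded. Resident and matrix-activated cells had similar folds of 2.13 (2.01 to 2.26) and 2.23 (1.85 to 2.71), and the adventitial fold was 1.74 (1.57 to 1.93). All 3 subsets were called. Resident cells made up a larger share of kept cells in db/db and salt (12.8% against 10.4%), and with subsets weighted as in db/+ the log2 ratio was 0.99.

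Fmo2 was higher in db/db and salt in fibroblasts and in every blood endothelial subtype, by folds that differed between them. In fibroblasts it went from 220.0 to 371 CPM, a fold of 1.69 (1.61 to 1.77) and a log2 ratio of 0.73. The fold was 1.39 (1.30 to 1.49) in resident cells, which had the highest level of the 3 subsets and did not reach the call, 2.60 (2.23 to 3.02) in matrix-activated and 1.95 (1.73 to 2.19) in adventitial cells. At 1500 UMIs per cell the fibroblast log2 ratio was 0.56, under the 1.5-fold limit. In endothelial cells it went from 139 CPM (134 to 144) to 253 CPM (246 to 261), a fold of 1.83 (1.74 to 1.92) and a log2 ratio of 0.83. Capillary cells had 104 and 232 CPM, angiogenic cells 63.5 and 188 CPM, arterial cells 27.8 and 49.9 CPM, and none of these pairs overlapped. Endocardial cells did not differ beyond their intervals, with 319 CPM (272 to 371) and 348 CPM (303 to 397).

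By class, the called genes were Gstp1 and Gsta3 in resident fibroblasts (2 of 10 measured, background 0.788%), and Gstp1, Gsta3 and Fmo2 in matrix-activated (3 of 10, 1.53%) and adventitial fibroblasts (3 of 10, 0.776%). They were Fmo2 and Mgst1 in capillary cells (2 of 7, 0.62%), Gstp1 and Fmo2 in arterial (2 of 8, 1.18%) and venous cells (2 of 8, 2.17%), and Fmo2 in angiogenic cells (1 of 7, 0.805%). Endocardial cells had Gstp1 (1 of 8, 1.53%) and mural cells none (0 of 8, 0.923%). None of the 10 was called lower in any of these classes, where 1.1% of genes were in resident, 1.53% in matrix-activated and 1.09% in adventitial fibroblasts, 1.44% in capillary, 1.41% in arterial, 2.53% in venous and 1.48% in angiogenic cells, 1.52% in endocardial and 1.39% in mural cells.

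**Figure D3:**
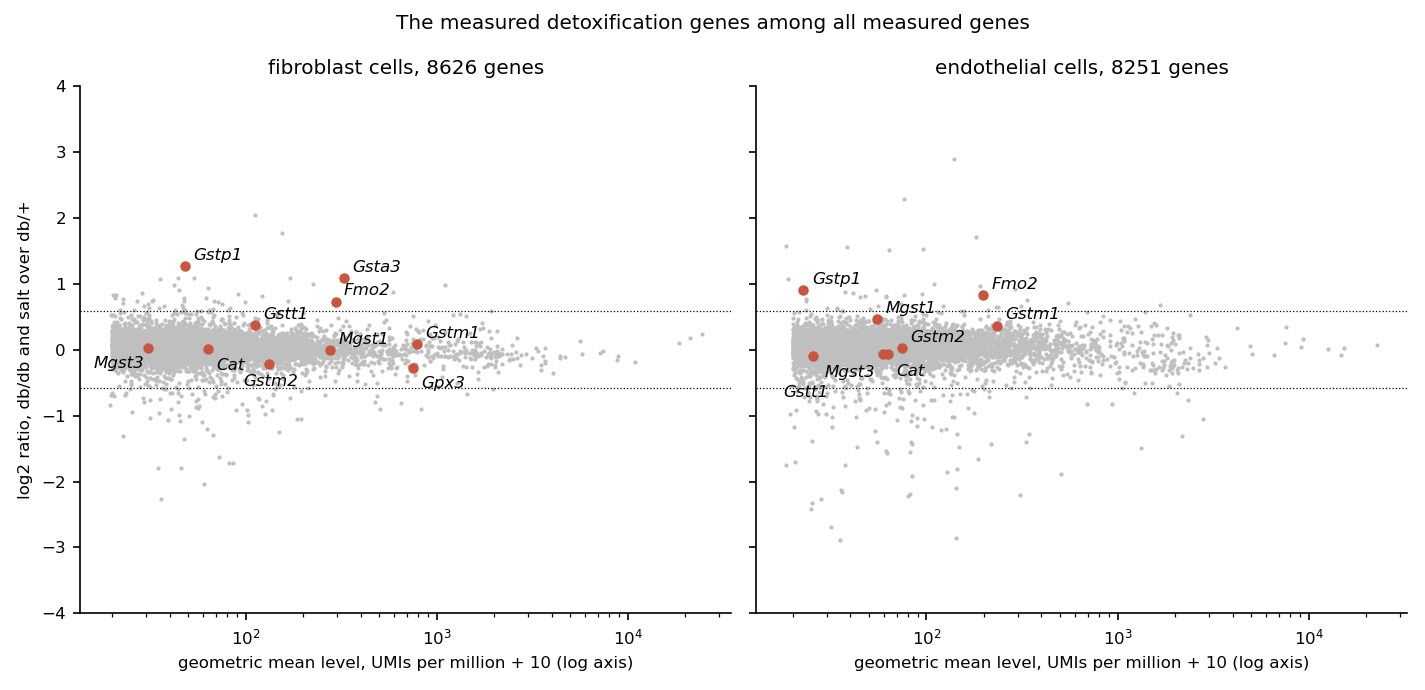
Log2 ratio of db/db and salt over db/+ (y axis) against the geometric mean of the 2 levels plus 10 (x axis, CPM, log scale) for 8626 genes in fibroblasts and 8251 in endothelial cells, with the measured detoxification genes in red. Dotted lines mark 1.5-fold; Gstp1, Gsta3 and Fmo2 lie above the upper line in fibroblasts and Gstp1 and Fmo2 in endothelial cells, and the other red points lie between the lines.

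Interferon-induced and MHC class II genes differed between the libraries in endothelial cells, and they were set beside Fmo2. The 6 interferon markers, all detected in both libraries, summed to 1410 CPM in db/+ and 401 CPM in db/db and salt, and the 4 class II markers, likewise all detected, to 413 and 8.62 CPM. Cells with at least 3 UMIs of either list were 59.1% (57.3 to 60.9) of db/+ and 28.5% (26.8 to 30.4) of db/db and salt endothelial cells. This cutoff was set on raw UMIs without thinning, so it also sorts cells by depth, and the part of depth in the folds below was not tested. Among the cells without, Fmo2 stood at 151 CPM in db/+ and 212 CPM in db/db and salt, a fold of 1.40 (1.29 to 1.52) and a log2 ratio of 0.46, which ended the call. Among the cells with, it stood at 134 and 313 CPM, a fold of 2.34 (2.20 to 2.48). The capillary fold was 1.79 (1.57 to 2.04) without and 2.69 (2.41 to 3.01) with such UMIs. The arterial order was the other way, 2.73 (1.47 to 5.53) without and 1.46 (0.97 to 2.18) with, the last an interval that includes 1.

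Venous cells were the exception in direction. The 37 and 55 venous cells without such UMIs had Fmo2 levels of 1037 CPM in db/+ and 847 CPM in db/db and salt, a fold of 0.82 (0.70 to 0.96), while the 159 and 65 with them had 484 and 911 CPM, a fold of 1.88 (1.71 to 2.08). The angiogenic fold was 4.44 (2.92 to 7.04) without and 3.56 (3.01 to 4.22) with such UMIs, where that of all angiogenic cells was 2.96 (2.55 to 3.44). In fibroblasts, where the interferon markers summed to 270.2 and 99.3 CPM, the Fmo2 fold was 1.67 (1.58 to 1.76) without and 1.67 (1.45 to 1.92) with such UMIs. For Gstp1 the endothelial fold was 2.81 (1.99 to 4.04) without and 3.43 (2.65 to 4.46) with such UMIs. The part of the interferon and class II difference in the Fmo2 difference was not tested. Proliferation markers (8 of 8 detected, 384 and 197 CPM) and erythroid markers (5 of 5, 3492 and 2732 CPM) also differed in endothelial cells. Without cells that carried them, the log2 ratio of Fmo2 was 0.78 and 0.85, and that of Gstp1 0.92 and 0.92.

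**Figure D4:**
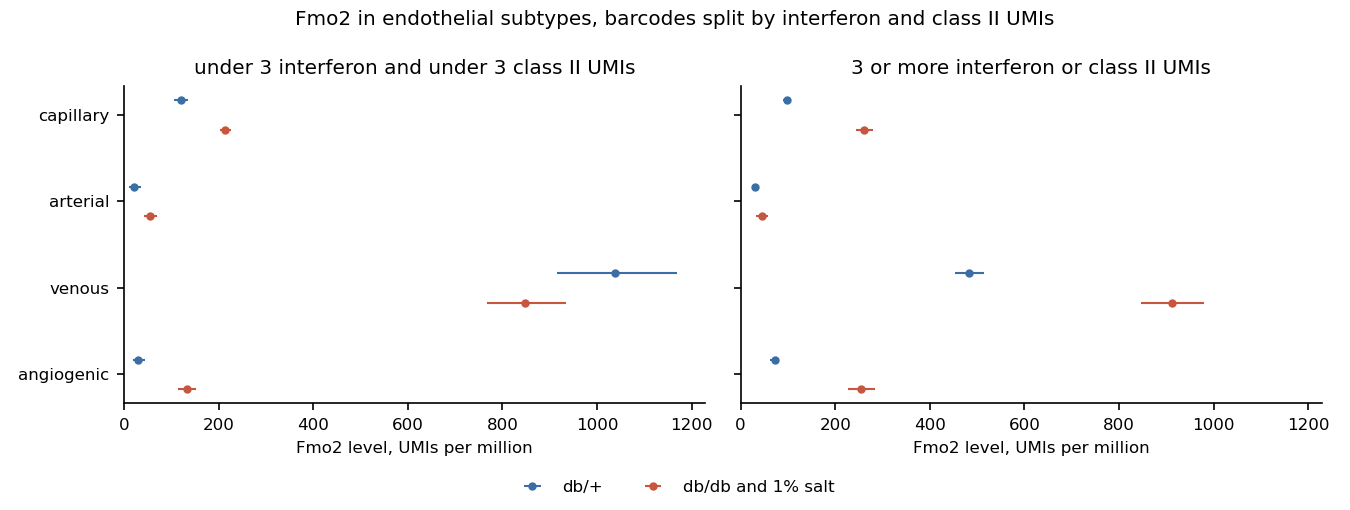
Fmo2 level (x axis, CPM) in 4 endothelial subtypes (y axis) of db/+ (blue) and db/db and salt (red), for cells with under 3 interferon and under 3 class II UMIs (left) and cells with 3 or more of either (right), with exact 95% Poisson intervals. The db/db and salt point is the higher one in all pairs but the venous cells on the left, at 1037 and 847 CPM.

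The other 7 genes were not past 1.5-fold in fibroblasts or in endothelial cells as a whole. Gpx3 was 0.83-fold (0.80 to 0.85) as high in fibroblasts of db/db and salt, at 813 CPM (797 to 830.5) and 672 CPM (658 to 687), and was below db/+ in each of the 3 subsets without overlap, by folds of 0.82 in resident, 0.79 in matrix-activated and 0.71 in adventitial cells. In smooth muscle it had 16 and 39 UMIs, or 147 and 286 CPM, with overlapping intervals. Gstt1 was 1.33-fold (1.23 to 1.44) higher in fibroblasts (88.7 and 118 CPM) and did not differ beyond its interval in endothelial cells, with a fold of 0.90 (0.76 to 1.06). Gstm1 was near equal in fibroblasts, with a fold of 1.06 (1.03 to 1.09), and 1.30-fold (1.25 to 1.36) higher in endothelial cells (197 and 256 CPM). Mural Gstm1 was 1.49-fold (1.22 to 1.83) higher. The fold was 1.48 (1.15 to 1.92) in smooth muscle (21 and 22 cells) and 1.07 (0.75 to 1.53) in pericytes (48 and 36 cells). The part of their mix in the mural fold was not tested.

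Mgst1 had a fold of 0.99 (0.94 to 1.04) in fibroblasts and of 1.48 (1.35 to 1.63) in endothelial cells. Capillary cells gave the 1 call of Mgst1 among the 9 classes, with 154 and 307 UMIs, levels of 19.8 and 36.7 CPM and a fold of 1.85 (1.52 to 2.26). Gstm2 was 0.85-fold (0.79 to 0.92) as high in fibroblasts, a log2 ratio of -0.21 that became 0.19 when cells were thinned to 1500 UMIs, so its direction is uncertain. Endothelial Gstm2 had a fold of 1.02 (0.94 to 1.10). Mgst3 and catalase differed by less than their intervals in both lineages, with folds of 1.03 (0.86 to 1.24) and 1.01 (0.90 to 1.13) in fibroblasts and of 0.95 (0.87 to 1.04) for each in endothelial cells.

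Lymphatic endothelial cells, outside the 9 classes, had 4 of the 6 genes measured there called higher in db/db and salt, where 1.58% of 8497 genes were, and 0 called lower (2.37%). Fmo2 went from 226 CPM (184 to 276) to 623 CPM (541 to 713), Gstm1 from 192 to 473 CPM, Mgst1 from 29.7 to 117 CPM and Gstp1 from 13.7 to 65.8 CPM. These rest on 25 and 24 cells.

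Of the 25 close relatives, 12 reached 10 CPM in a class of at least 50 cells. The monooxygenase Fmo1, the neighbour of Fmo2 on chromosome 1, was likewise highest in venous cells, at 525 and 621 CPM. Its endothelial level was 289 CPM in db/+ and 325 CPM in db/db and salt, a fold of 1.12 (1.08 to 1.16) where that of Fmo2 was 1.83. Gsta4 was highest in endocardial cells (109 and 71.2 CPM) and stood at 1.83 and 6.24 CPM in fibroblasts. Gstm5 was a gene of fibroblasts (163 and 146 CPM) and Gpx8, of the endoplasmic reticulum, one of fibroblasts (139.9 and 143 CPM) and mural cells (206 and 219 CPM). The peroxidases Gpx4, which protects lipids, and Gpx1 were found in all classes, at 426 and 398 CPM and at 264 and 242 CPM in fibroblasts. Gpx7, Gstt2, Gstt3 and Fmo5 stood at 102, 24.1, 22.6 and 22.7 CPM in db/+ fibroblasts, Gstm4 at 12.2 CPM, and Gstm7 passed 10 CPM only among cells of no class (13.9 CPM, from 2 UMIs). Among the relatives measured, 10 in fibroblasts and 7 in endothelial cells, 0 passed 1.5-fold either way. Of all genes 0.614% passed it upward and 0.962% downward in fibroblasts, and 0.521% and 1.55% in endothelial cells, so little is read from these counts. In the smaller classes, Gpx1 was called higher in endocardial cells (281 and 462 CPM), where 1.53% of 8633 genes were. Fmo5 was called lower in matrix-activated fibroblasts (19.9 and 7.89 CPM), where 1.53% of 8574 genes were. These calls were picked from comparisons of many relatives and classes, and nothing more is read from them.

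Genes of the wider detoxification lists were held to the same 1.5-fold limit. In fibroblasts 0.614% of all 8626 measured genes passed it upward and 0.962% downward, and in endothelial cells 0.521% and 1.55% of 8251. With shares this small and lists this short, a count of 0 is not read as a result about a pathway. Of the 13 measured Nrf2 and Ahr pathway genes, 0 passed 1.5-fold in fibroblasts (median log2 ratio -0.07) and 0 in endothelial cells (0.06), and of the genes of glutathione synthesis, reduction and turnover 0 of 19 and 0 of 13 did. In fibroblasts Ptges, a prostaglandin E synthase of the membrane transferase family, went from 7.58 to 19.9 CPM. Extracellular superoxide dismutase Sod3 was lower in fibroblasts of db/db and salt (233 and 148 CPM), as were the retinal dehydrogenase Aldh1a2 (63.2 and 33.4 CPM) and the methyltransferase Inmt (41.8 and 22.9 CPM). A pseudocount of 50 CPM ended all 4 of these fibroblast calls, and that of Sod3 was also lost with cells thinned to 1500 UMIs, by Leiden clusters and with subsets weighted as in db/+. Inmt lost its call with at most 1 UMI of other lineages and without cells with an erythroid UMI. In endothelial cells the purine oxidase Xdh was lower (196 and 119 CPM) and the aldehyde dehydrogenase Aldh2 higher (160.4 and 248 CPM). The Xdh call was lost with a pseudocount of 50 CPM and without interferon or class II cells. The Aldh2 call, at a log2 ratio of 0.60, was lost under 8 alternatives, TMM scaling and median centring among them. The peroxisome list, to which catalase belongs by location, had 0 of 12 and 0 of 11 genes past 1.5-fold.

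Promoters of the 10 genes, the 250 bases before each start in RefSeq (GRCm38.p6), were searched on both strands for the antioxidant response element core in the forms TGACNNNGC and TGAGNNNGC, the second added after the sequences were seen, and for the dioxin response element TNGCGTG. Those of the 3 genes called higher are printed, each with its matches in capitals and written along the gene's strand. For Fmo2 the second of 2 annotated starts is given, since the first held no match. That start was thus picked by its match. Most of its stretch, the match included, lies within the GENCODE M21 gene (chr1:162874317-162898726, minus strand).
Gstp1, chr19:4037913-4038162, minus strand: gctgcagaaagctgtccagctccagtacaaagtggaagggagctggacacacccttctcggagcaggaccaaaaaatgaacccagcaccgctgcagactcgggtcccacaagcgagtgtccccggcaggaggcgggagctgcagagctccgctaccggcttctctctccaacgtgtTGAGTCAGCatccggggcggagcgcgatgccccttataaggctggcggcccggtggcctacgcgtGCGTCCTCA
Gsta3, chr1:21240335-21240584, plus strand: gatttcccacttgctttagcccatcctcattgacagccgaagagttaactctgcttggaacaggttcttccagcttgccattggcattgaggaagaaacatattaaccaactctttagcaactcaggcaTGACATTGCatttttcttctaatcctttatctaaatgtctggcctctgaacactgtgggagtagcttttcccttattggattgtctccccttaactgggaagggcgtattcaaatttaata
Fmo2, chr1:162898494-162898743, minus strand: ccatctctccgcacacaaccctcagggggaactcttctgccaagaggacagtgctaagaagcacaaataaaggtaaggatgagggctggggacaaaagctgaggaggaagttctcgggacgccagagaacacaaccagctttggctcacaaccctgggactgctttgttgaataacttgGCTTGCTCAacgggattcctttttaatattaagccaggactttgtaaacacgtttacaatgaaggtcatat
Gstp1 held a G form on its own strand at -74 and 1 on the other strand at -9, Gsta3 a C form at -121, and Fmo2 a G form on the other strand at -71, counting the base before the start as -1. Mgst1 held a C form on the other strand at -56 and Gstt1 a G form at -89. At the first start of each gene, 4 of 10 promoters held either form, as did 27.7% of 27025 promoters in all (12.5% the C form, 17.5% the G form), over 250 bases before and 50 after the start. The dioxin element was in 0 of the 10 and in 5.12% of all. A match is a string of letters and does not show that a factor binds.

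Likeness of pattern was described as Pearson's r of log2(CPM + 10) over 18 profiles, the 9 classes in each of 2 libraries, among 5808 genes of at least 50 CPM in a profile. These profiles share libraries and lineages, so r mostly reflects which classes hold a gene, and no test is given. Gsta3 was most like Cdh19 (0.997), Slit2 (0.99) and Smoc2 (0.987), of which Cdh19 is on the Schwann cell list and Smoc2 is a marker that set the resident subset, and Gpx3 most like Srpx (0.995), Il17d and Vgll3 (0.993 each). Mgst3 was most like the smooth muscle kinase Mylk (0.957), a smooth muscle marker of the classes, Gstt1 most like the collagen Col6a1 (0.966) and Mgst1 most like the receptor Tgfbr2 (0.946). Gstm2 was like Gnptg (0.927), Mia3 (0.913) and Gstm1 (0.911), and Mia3 led for Gstm1 (0.941). Fmo2, Gstp1 and catalase had no partner above 0.9, their closest being Socs3 (0.893), Ndufv3 (0.85) and Ascc3 (0.88). Among the 10 genes themselves, Gsta3 and Gpx3 had the highest r (0.918), although Gsta3 was higher and Gpx3 lower in db/db and salt.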

How the data were processed

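The authors deposited 1 filtered 10x matrix of raw UMI counts per library, made from the 3' v3.1 kit per the labels' protocols, with Cell Ranger 6.0.2 named in the file headers and GRCm38 (mm10) in the submitters' processing notes. Hearts had been depleted of cardiomyocytes and of CD45+ cells. Matrices were read with scanpy 1.11.5, doublets were called with its Scrublet, and cells with over 10% mitochondrial UMIs or under 500 genes were left out. Cells with at least 3 core markers of 1 lineage and under 3 of another formed a class. Raw counts were summed per library and class and divided by the class total (CPM). Ratios used a pseudocount of 10 CPM. No p-value is given, since each group is 1 library and cells are not replicates. The ratio and call were tried on simulated Poisson counts with known fold changes, both libraries drawn from 1 pooled profile. Variance between animals, preparations or libraries was not simulated, so the trial says nothing about it. The genes, lists and markers were chosen with earlier results of these data known. Coordinates and transcripts come from GENCODE M21, which held 31011 of the 31053 gene identifiers, and promoters of all 10 genes from RefSeq. Named genes are all 10 members, relatives of at least 10 CPM in a class, up to 4 genes per other list past 1.5-fold and the 3 most alike per member. Alternatives changed the pseudocount, scaling, filters, thinning and class definition.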

Additional observations from a re-analysis of the deposited data

Results flagged for a closer look

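In db/+ 439 barcodes and in db/db and salt 442, each with at least 500 genes and over 10% mitochondrial UMIs, were left out at the limit used above. Of the 10 genes 2 were called higher in them and 1 lower. An alternative raised that limit to 20%. Gstp1 had 20 and 63 UMIs, or 10.1 and 28.8 CPM, a log2 ratio of 0.95. Gsta3 had 11 and 33 UMIs, or 5.57 and 15.1 CPM, a log2 ratio of 0.69. In these barcodes 1.46% of 8545 measured genes were called higher. Gpx3 had 132 and 73 UMIs, or 66.9 and 33.4 CPM, a log2 ratio of -0.82, where 2.33% of genes were called lower. These barcodes were pooled over all cell types, so their ratios are not like those given by class. The part of the cell mix of each library in them was not tested.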

How the results depend on the processing

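No paired analysis was possible because each group has 1 library. The fibroblast log2 ratio stayed past 1.5-fold for Gstp1 (0.69 to 1.58) and Gsta3 (0.97 to 1.14) under every alternative run. With a minimum of 50 CPM, however, Gstp1, at 20.9 and 64.6 CPM in fibroblasts, fell under the required mean and had no call. That of Fmo2 (0.56 to 0.84) missed the limit only with cells thinned to 1500 UMIs. In endothelial cells Gstp1 was at 0.33 with a pseudocount of 50 CPM, and Fmo2 at 0.46 without cells with interferon or class II UMIs, an alternative chosen after seeing the data. The count of members higher in endothelial cells, 2, became 1 with a pseudocount of 50 CPM, a minimum of 50 CPM or without interferon or class II cells. Of the other lists, the 1 gene higher in fibroblasts became 2 (pseudocount 1 CPM, or at most 1 UMI of other lineages), 3 (thinned) or 0 (pseudocount 50, minimum 50 CPM), and the 3 lower became 0 (pseudocount 50) or 1 (minimum 50 CPM). The 1 gene higher in endothelial cells became 0 with a pseudocount of 50, TMM scaling, median centring, thinning, at most 1 UMI of other lineages, Leiden clusters, or without interferon or class II or proliferating cells. The 1 lower became 3 (pseudocount 1) or 0 (pseudocount 50, or without interferon or class II cells). The cause was not tested. Few cells limit the endocardial, lymphatic and mural values.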
